A study of Mus musculus with 10 samples.

Results

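A set of 33 genes of the NF-kB pathway was examined in RNA-seq libraries of mouse skin innate lymphoid cells (ILCs). The set was chosen by gene symbol, with earlier results of these data known. Its shares are therefore set beside those of all genes as a description and not as a test. It holds 10 signalling components, 5 subunits of the transcription factor, 8 inhibitors and 10 genes that NF-kB is known to induce. All 33 were among the 47643 gene IDs of each deposited table, and all 33 passed the filter on low counts that left 16208 genes for testing. ILCs are tissue lymphocytes without rearranged antigen receptors. Adult B6 mice were the source, and the skin was the tissue of every library. The epidermal group had 3 libraries, the dermal ILCs sorted as CCR6+ had 2, the dermal ILCs sorted as Sca1+ had 2, and the subcutaneous group had 3. No treatment or genetic change is labelled for any library. CCR6 is a chemokine receptor and Sca1 a surface protein of many type 2 ILCs.

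Library totals of the expected counts lay between 11627222 and 18118544. Levels of one gene across libraries are in CPM, which divides counts by TMM library sizes, and those of different genes are in TPM, which corrects for gene length. Separate animals are not named for the replicates, so p-values measure only how far these libraries spread, which can be technical. Ptprc, Thy1, Il7r, Il2rg and Gata3, markers of ILCs, were detected in every library, and the summed level of 7 ILC markers was between 6057 and 6588 CPM in the epidermal and between 9590 and 12668 in the other libraries. Of the 7 ILC markers, 6 were lower in the epidermal than in the subcutaneous group and 1, Thy1, was higher, with means of 193 and 85.5 CPM. The summed level of 6 T cell markers was between 235 and 664 CPM over all libraries. Markers of other cells differed between the layers. The summed level of 8 macrophage markers was 1.6 to 4.01 CPM in the epidermal, 177 to 661 in the dermal and 3932 to 7288 in the subcutaneous libraries. That of 8 fibroblast markers was 0.139 to 17.1, 1231 to 3792 and 2944 to 4463 CPM, and that of 8 keratinocyte markers was 2424 to 6355, 1174 to 1815 and 27.6 to 33.3, in the same order. In bulk RNA, fewer cells of a type that expresses a gene and less RNA of that gene per cell cannot be told apart.

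NF-kB is a family of dimeric transcription factors built from Rel, Rela, Relb and the products of Nfkb1 and Nfkb2. In resting cells the dimers are held in the cytoplasm by IkB proteins, which the IkB kinase complex marks for degradation when receptors for cytokines, microbial products or antigens are engaged. The freed dimers bind kappaB sites in DNA and induce survival and inflammatory genes together with their own inhibitors, which gives the pathway negative feedback. In ILCs this pathway lies downstream of receptors for alarmins such as IL-33 and of receptors of the TNF family.

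Promoters of the feedback genes are where the pathway meets its own output, so the stretches that carry a kappaB consensus match are shown for the members with the most matches. RefSeq promoter windows of 300 bases (GRCm38.p6, 250 bases before to 50 after a start) were found for 26 of the 33 members. The members without one were Cd83, Ikbkb, Malt1, Map3k8, Nfkb1, Nfkbiz and Relb. Each line gives 30 bases, 5′ to 3′ in the direction of the gene, with the match in capitals. Nfkb2, Rel, Bcl3 and Nfkbid were taken by rule, with equal counts of matches ordered by the size of the difference between epidermal and subcutaneous ILCs, and Nfkbia and Tnfaip3 were added after their values were seen.
Nfkb2, first match: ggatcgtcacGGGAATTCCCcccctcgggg
Nfkb2, second match: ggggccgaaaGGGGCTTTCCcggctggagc
Rel: cgtaagcagcGGGAAATCCCcccccctccc
Bcl3: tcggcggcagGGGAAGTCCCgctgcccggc
Nfkbid: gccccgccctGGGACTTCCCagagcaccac
Nfkbia: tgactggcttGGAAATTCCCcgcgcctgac
Tnfaip3: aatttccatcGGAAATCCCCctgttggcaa

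The matches of Nfkb2 were at chr19:46304698-46304707 and chr19:46304726-46304735, on the plus strand of GRCm38 (mm10), where the annotation places an exon and UTR of Nfkb2 and an exon of the antisense gene AC114539.1. A further Nfkb2 match, at chr19:46305705-46305714 near other starts, is not shown. Nfkbid lies on the plus strand too, and Rel, Bcl3, Nfkbia and Tnfaip3 lie on the minus strand. The match of Rel was at chr11:23771052-23771061, outside any annotated gene, and a further match overlapped it by 9 of its 10 bases. The Bcl3 match at chr7:19822744-19822753 was in the UTR, the Nfkbid match at chr7:30422180-30422189 was in an intron, the Nfkbia match at chr12:55492667-55492676 lay outside any annotated gene, and the Tnfaip3 match at chr10:19015413-19015422 was in an intron. Both strands were searched for the kappaB consensus, and 11 of the 26 members (42.3%) held a match, against 6.55% of the 27025 genes in the table. A match is a description of the letters and not a measured binding site. In the comparison of epidermal with subcutaneous ILCs described next, 5 of the 11 members with a match were lower in epidermal ILCs and 6 had no call. Of the 15 without one, 7 had lower and 1 had higher levels, and 7 had no call.

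Epidermal ILCs had less RNA than subcutaneous ILCs from many NF-kB genes, in every role class. The c-Rel gene Rel, the adaptor gene Traf1, the IkB gene Nfkbie, the signalling protease gene Malt1 and the stress response gene Ier3 were among the members called lower against each of the other populations. Lower levels in epidermal ILCs were called for 16 of the 33 members and a higher level for 1, and 16 passed neither way, by edgeR's quasi-likelihood test at a Benjamini-Hochberg adjusted p under 0.05 over all genes. Over all 16208 genes, 20.2% were called in this comparison, 13.3% as lower and 6.87% as higher in epidermal ILCs. The median log2 fold change of the members was -0.92, and that of all genes tested was -0.02. By role, 6 of 8 inhibitors, 3 of 5 subunits, 4 of 10 signalling components and 3 of 10 induced targets were lower, and the member that was higher was the target Bcl2a1b. The class medians were -1.63 for inhibitors, -0.92 for subunits, -0.55 for signalling components and -0.39 for targets. Leaving out any 1 of the 10 libraries, 12 of the 17 calls held throughout. The call of Bcl10 was lost in all 10 such fits (adjusted p up to 0.106), that of Ikbkb in 9 (up to 0.124, without epidermal replicate 3), that of Nfkbid in 4 (up to 0.0792, without subcutaneous replicate 1), that of Nfkbib in 3 (up to 0.061, without subcutaneous replicate 1) and that of Nfkb1 in 2 (up to 0.0713, without epidermal replicate 3).

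**Figure D1:**
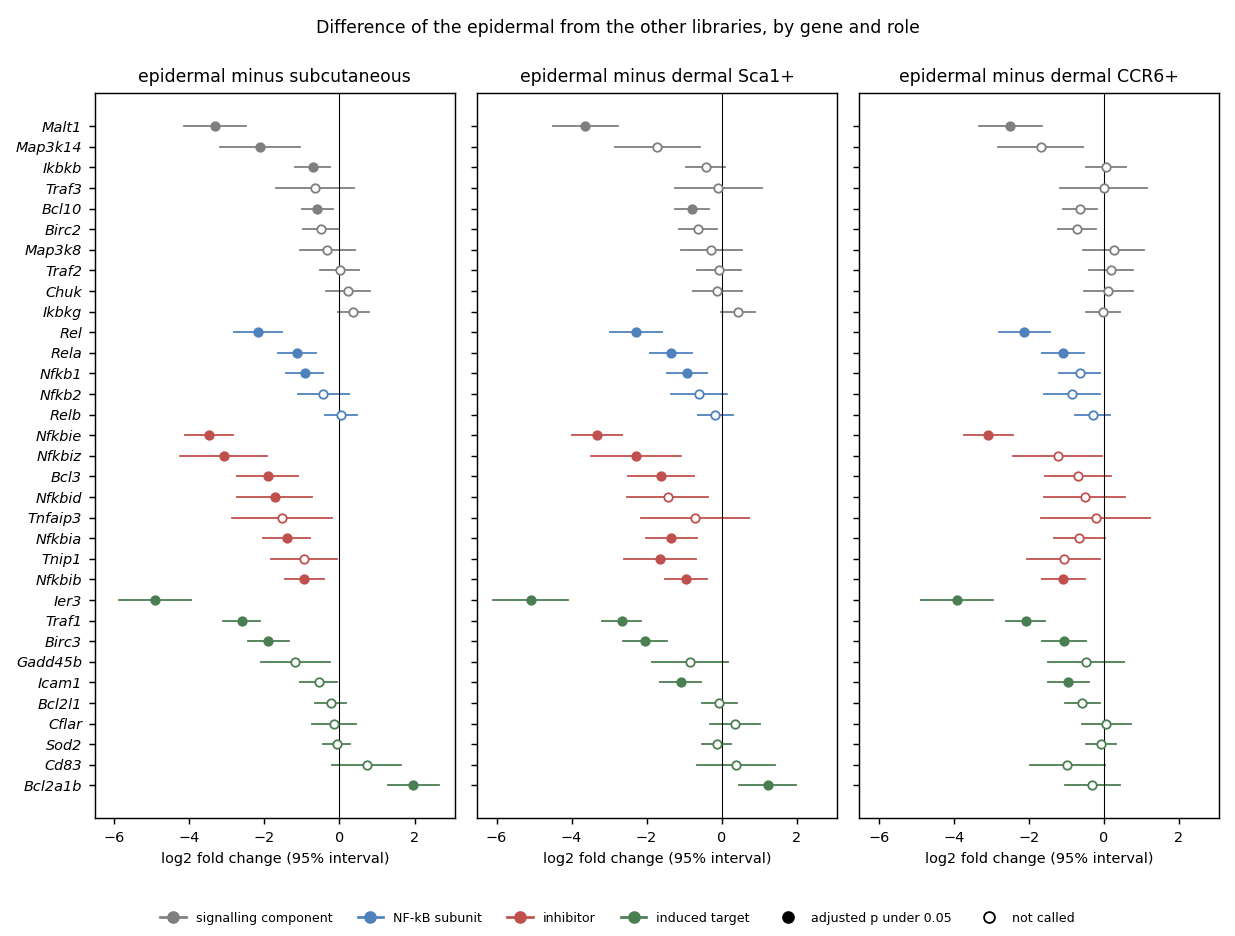
Log2 fold change of each of the 33 members in the epidermal minus subcutaneous, epidermal minus dermal CCR6+ and epidermal minus dermal Sca1+ comparisons, grouped by role, with bars for the 95% interval and filled points for genes called by edgeR at an adjusted p under 0.05. Most points lie below 0, Ier3, Nfkbie and Malt1 lie lowest, and Bcl2a1b lies above 0 in the comparisons with the subcutaneous and dermal Sca1+ libraries.

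Among the subunits, the separation was largest for Rel (chromosome 11, 23736847 to 23770970, minus strand), whose product c-Rel drives lymphocyte activation genes. Rel was at 153, 127 and 74.2 CPM in the epidermal, 618 and 408 in the dermal CCR6+, 629.6 and 519.6 in the dermal Sca1+ and 594, 566 and 425 in the subcutaneous libraries. All 3 epidermal libraries were below all 7 others, and the other 3 populations overlapped. The log2 fold change was -2.16 ± 0.289 (SE) against subcutaneous ILCs (edgeR adjusted p = 0.000494), -2.12 ± 0.308 against dermal CCR6+ ILCs (0.00232) and -2.28 ± 0.309 against dermal Sca1+ ILCs (0.000927). Rela, which encodes the p65 subunit of the canonical dimer, was at 199, 164 and 192 CPM in the epidermal, 399 and 393 in the dermal CCR6+, 569.6 and 381 in the dermal Sca1+ and 532, 368 and 316 in the subcutaneous libraries. Its epidermal libraries were also below all others, with a log2 fold change of -1.13 ± 0.232 against subcutaneous ILCs (edgeR adjusted p = 0.00634). Nfkb1, the p105 and p50 gene, was at 192, 277 and 174 CPM in the epidermal, 378 and 292 in the dermal CCR6+, 408 and 408 in the dermal Sca1+ and 407, 335 and 476 in the subcutaneous libraries, again with no overlap between the epidermal and the other libraries (-0.92 ± 0.222, edgeR adjusted p = 0.0148 against subcutaneous ILCs). Neither Relb nor Nfkb2, the subunit genes of the alternative arm, passed the test in any of the 6 comparisons. In some alternative fits Nfkb2 was called lower in epidermal than in dermal CCR6+ ILCs. Without both epidermal replicate 1 and subcutaneous replicate 1, that difference was -1.12 (edgeR adjusted p = 0.0303). Relb was at 119, 83.3 and 119 CPM in the epidermal, 131 and 133 in the dermal CCR6+, 123 and 118 in the dermal Sca1+ and 113, 105 and 95.2 in the subcutaneous libraries, and its log2 fold change between epidermal and subcutaneous ILCs was 0.04 with a 95% interval of -0.38 to 0.46. For Nfkb2 the fold change was -0.43 (-1.10 to 0.24), and its reads cannot be told apart from those of the antisense gene AC114539.1, because the library kit does not mark strand.

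On the TPM scale, which allows the subunits to be ranked, Rel had the lowest level of the 5 in each epidermal library, at 30.8, 19.9 and 12.5 TPM. Relb, next in the order of epidermal means, was at 88.5, 47.7 and 75.2, and Nfkb1 at 136, 134 and 109.8, the highest. In the subcutaneous libraries Rel was at 102, 84.3 and 62 TPM and Relb at 72.3, 58.5 and 51.4, so that Rel exceeded Relb in each of them. Rela and Nfkb1 overlapped in the subcutaneous libraries, with means of 190.3 ± 72.1 and 189 ± 29.1 TPM (SD, n = 3). Summed over the 5 subunits, the level was 387 ± 84.8 TPM in epidermal, 639.7 ± 25.7 in dermal CCR6+, 673 ± 65.7 in dermal Sca1+ and 608 ± 156 in subcutaneous ILCs (SD, n = 3, 2, 2 and 3). The highest epidermal library, at 484 TPM, stayed below the lowest of the others, at 502.

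**Figure D2:**
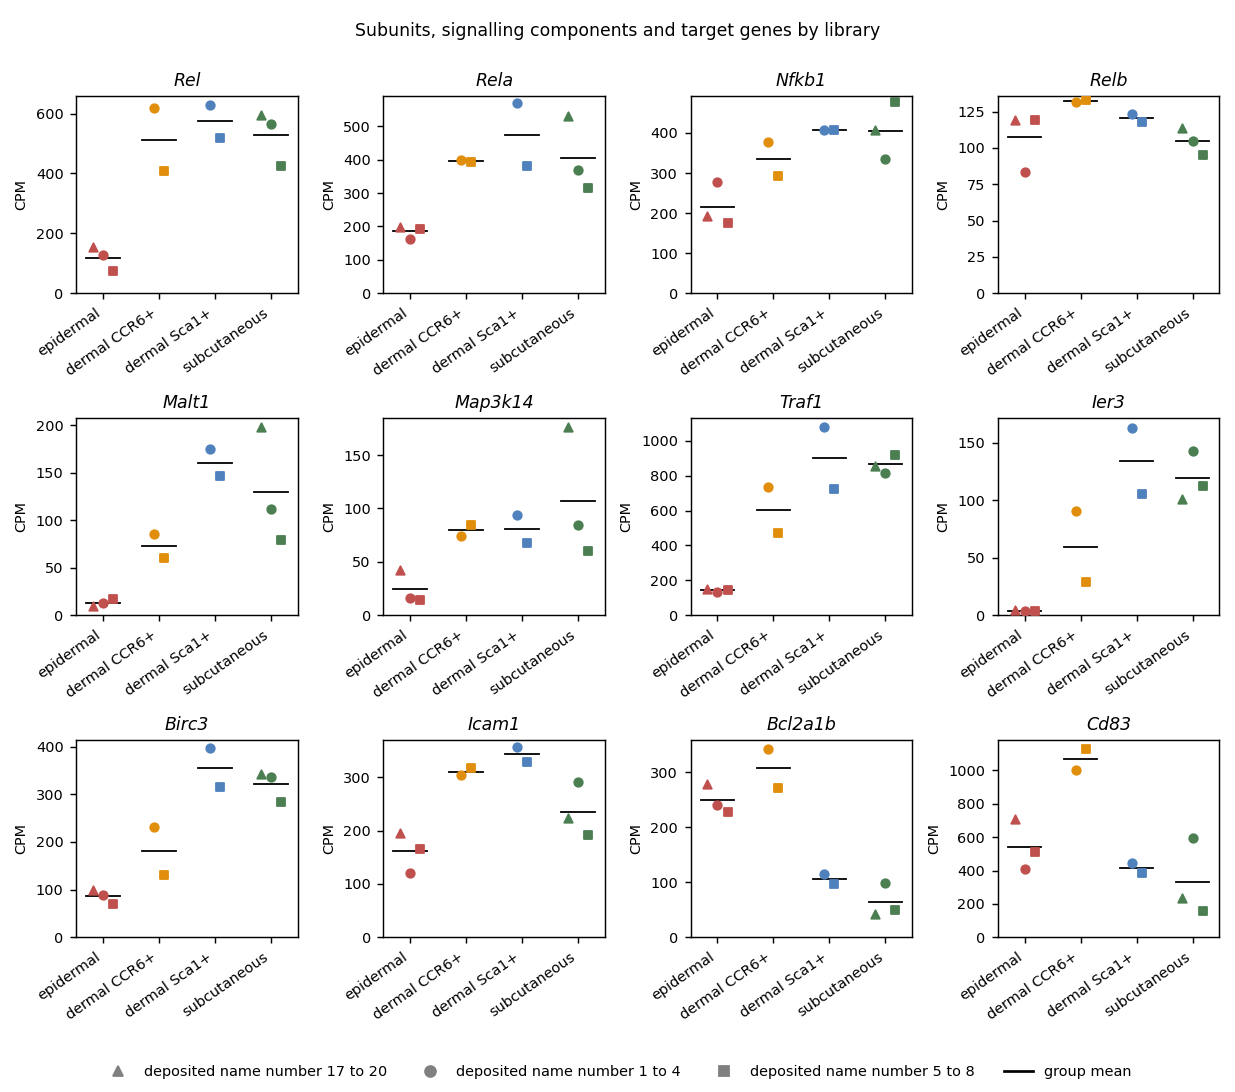
Level of selected members in CPM in each of the 10 libraries, by population, with a line at the mean of each group and the marker shape giving the run of numbers in the deposited library names. Rel, Traf1, Malt1 and Ier3 are low in all 3 epidermal libraries, and Bcl2a1b is high in the epidermal and dermal CCR6+ libraries.

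Of the signalling components, Malt1 and Map3k14 differed most. Malt1 encodes the protease and scaffold that links antigen receptors to the IkB kinase, and was at 9.49, 12.4 and 16.9 CPM in the epidermal, 85.5 and 59.9 in the dermal CCR6+, 174 and 146 in the dermal Sca1+ and 198, 112 and 78.7 in the subcutaneous libraries. Its epidermal libraries were all below all others, and its log2 fold change against subcutaneous ILCs was -3.32 ± 0.373 (edgeR adjusted p = 0.000161). Its partner Bcl10 was at 76.4, 85 and 86 CPM in the epidermal and 128, 127 and 119 in the subcutaneous libraries, a smaller difference of -0.59 ± 0.185 that passed the test only narrowly (edgeR adjusted p = 0.0458). Map3k14, which encodes the kinase NIK of the alternative arm, was at 42.6, 16.5 and 14.7 CPM in the epidermal, 73.9 and 84.8 in the dermal CCR6+, 94.1 and 67.2 in the dermal Sca1+ and 176, 84 and 60.5 in the subcutaneous libraries. The highest epidermal library lay below the lowest of the others, and the log2 fold change against subcutaneous ILCs was -2.12 ± 0.484 (edgeR adjusted p = 0.0115). The IkB kinase subunit gene Ikbkb was at 101, 64.7 and 65.5 CPM in the epidermal, 74.1 and 74.1 in the dermal CCR6+, 107 and 99.3 in the dermal Sca1+ and 130.4, 114 and 135 in the subcutaneous libraries. Its log2 fold change between epidermal and subcutaneous ILCs was -0.72 ± 0.211 (edgeR adjusted p = 0.0372). Dermal CCR6+ ILCs lay inside the epidermal range, and their difference from subcutaneous ILCs was -0.77, which was not called. The genes of the other 2 kinase complex subunits, Chuk and Ikbkg, were not called in any comparison, with log2 fold changes between epidermal and subcutaneous ILCs of 0.22 (-0.37 to 0.81) and 0.37 (-0.04 to 0.78). Traf2, Traf3, Birc2 and Map3k8 were not called in any comparison either. For Traf2, a ubiquitin ligase adaptor of TNF receptors, the interval of the epidermal minus subcutaneous log2 fold change was -0.51 to 0.52.

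The inhibitors were the class with the largest median difference. All epidermal libraries lay below all others for Nfkbie and Nfkbib only. For each of the other inhibitors an epidermal library exceeded a library of another group. Nfkbie encodes IkB epsilon, which holds Rel and Rela dimers in the cytoplasm (chromosome 17, 45555703 to 45563169, plus strand). It was at 38.6, 22.4 and 25.7 CPM in the epidermal, 261 and 228 in the dermal CCR6+, 352 and 232 in the dermal Sca1+ and 373, 353 and 244 in the subcutaneous libraries. Each of the other 7 libraries held more than each epidermal library, and the log2 fold change was -3.48 ± 0.288 against subcutaneous (edgeR adjusted p = 2.73e-05), -3.08 ± 0.298 against dermal CCR6+ (0.00025) and -3.33 ± 0.3 against dermal Sca1+ ILCs (8.69e-05). Nfkbib, the IkB beta gene, showed a like order at smaller size, at 52.2, 48.3 and 46.6 CPM in the epidermal, 106 and 102 in the dermal CCR6+, 117 and 71.8 in the dermal Sca1+ and 111, 97.7 and 73 in the subcutaneous libraries (-0.94 ± 0.234 against subcutaneous ILCs, edgeR adjusted p = 0.0174). Nfkbiz encodes the nuclear IkB zeta, a co-activator of a subset of NF-kB targets, and was at 301, 92.5 and 83.5 CPM in the epidermal, 503.6 and 244 in the dermal CCR6+, 939 and 622 in the dermal Sca1+ and 1729, 960.2 and 1353 in the subcutaneous libraries. The epidermal and subcutaneous libraries did not overlap, with a log2 fold change of -3.08 ± 0.523 (edgeR adjusted p = 0.0022), while epidermal replicate 1 exceeded the lower of the dermal CCR6+ libraries. Bcl3, another nuclear IkB gene, was at 23.3, 16.9 and 30.9 CPM in the epidermal, 51.1 and 25.2 in the dermal CCR6+, 94.1 and 51.7 in the dermal Sca1+ and 116, 80.3 and 71.8 in the subcutaneous libraries. Its log2 fold change against subcutaneous ILCs was -1.91 ± 0.369 (edgeR adjusted p = 0.00455), while epidermal replicate 3 exceeded the lower of the dermal CCR6+ libraries.

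Nfkbia encodes IkB alpha, the IkB that NF-kB resynthesises first, and was the inhibitor with the highest mean TPM in all 4 populations. It was at 2062, 1159 and 891 CPM in the epidermal, 2037 and 2275 in the dermal CCR6+, 3374 and 3601 in the dermal Sca1+ and 3883, 2957 and 4063 in the subcutaneous libraries. The epidermal libraries were below the dermal Sca1+ and subcutaneous libraries, and epidermal replicate 1 overlapped the dermal CCR6+ libraries. Its log2 fold change was -1.41 ± 0.282 against subcutaneous (edgeR adjusted p = 0.00566) and -1.35 ± 0.305 against dermal Sca1+ ILCs (0.0174). Nfkbid, which encodes IkB NS, was at 346, 124 and 105 CPM in the epidermal and 873, 366 and 673 in the subcutaneous libraries (-1.73 ± 0.454, edgeR adjusted p = 0.0223), without overlap but with 1 epidermal library far above the others. Tnfaip3 encodes A20, the ubiquitin-editing enzyme that shuts off signalling to the IkB kinase. It was at 3826, 781 and 695 CPM in the epidermal, 2219 and 1893 in the dermal CCR6+, 3063 and 2734 in the dermal Sca1+ and 8049, 3283 and 3943 in the subcutaneous libraries. The range of the epidermal group reached from below all dermal libraries to above 1 subcutaneous library, and no comparison called it (against subcutaneous ILCs -1.53 ± 0.601, edgeR adjusted p = 0.103). Without epidermal replicate 1 the difference was -2.77 and was called (edgeR adjusted p = 0.000916). Tnip1, whose product works with A20, was at 99.6, 48.1 and 43.2 CPM in the epidermal and 191, 92.3 and 86.4 in the subcutaneous libraries and was called only against dermal Sca1+ ILCs (-1.64 ± 0.434, edgeR adjusted p = 0.0351). That call was lost in 3 of 10 fits with a library left out (adjusted p up to 0.236, without dermal Sca1+ replicate 1).

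**Figure D3:**
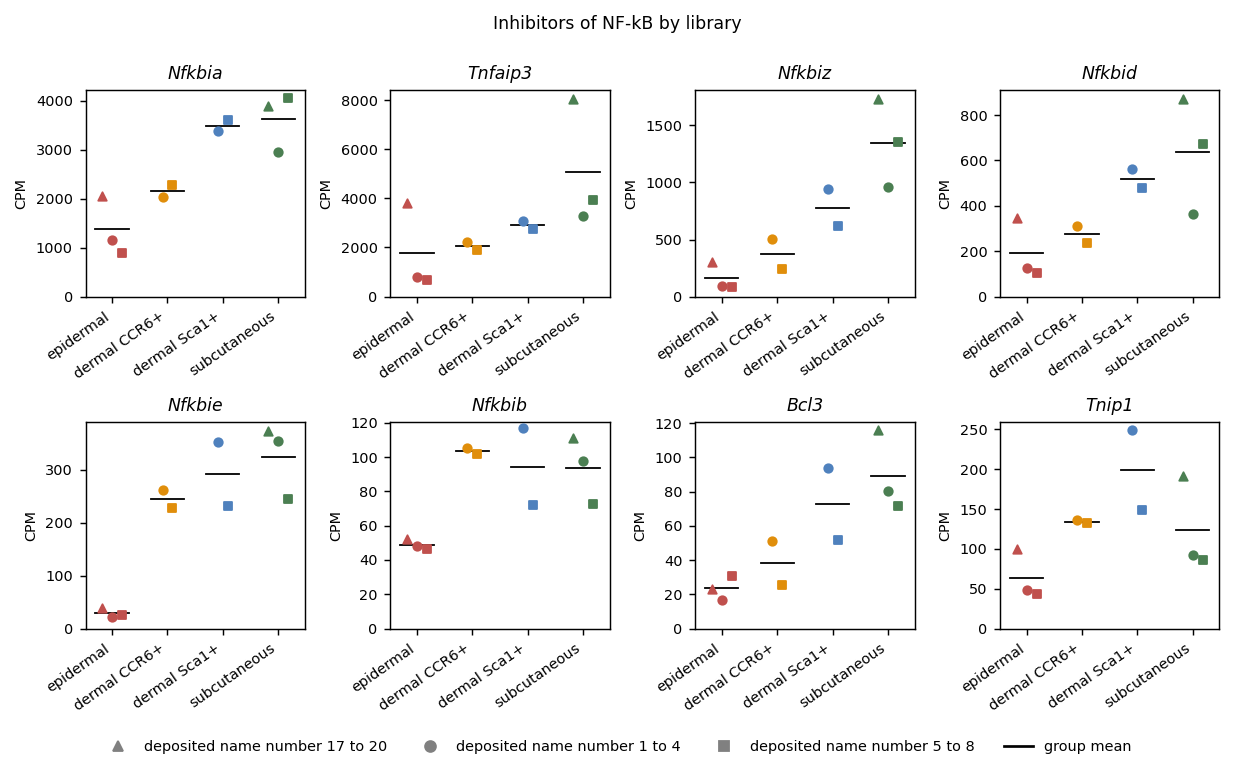
Level of the 8 inhibitor genes in CPM in each library, by population, with a line at each group mean and marker shapes for the 3 runs of numbers in the deposited library names. For Tnfaip3, Nfkbiz, Nfkbid, Tnip1, Nfkbie and Nfkbib the triangle, numbered 17 or 20, is the highest point of both the epidermal and the subcutaneous group. The epidermal points of Nfkbie and Nfkbib all lie below those of the other groups.

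The induced targets did not move as 1 group. Ier3, Traf1 and Birc3 were low in the epidermis, Bcl2a1b was high in epidermal and dermal CCR6+ ILCs, and Sod2 had overlapping levels in all populations. Ier3 encodes an early response protein that modulates cell survival (chromosome 17, 35821684 to 35822923, plus strand), and was at 4.39, 3.55 and 3.86 CPM in the epidermal, 90.2 and 29 in the dermal CCR6+, 163 and 105 in the dermal Sca1+ and 101, 143 and 113 in the subcutaneous libraries. Its epidermal libraries were the lowest by a wide margin, and its log2 fold change of -4.91 ± 0.434 against subcutaneous ILCs was the largest of any member in that comparison (edgeR adjusted p = 3.95e-05). Traf1, an adaptor that works with the cIAP proteins at TNF receptors, was at 150.2, 135 and 142 CPM in the epidermal, 737 and 469 in the dermal CCR6+, 1082 and 723 in the dermal Sca1+ and 858, 815 and 921 in the subcutaneous libraries. The epidermal libraries differed little among themselves and lay below all others (-2.60 ± 0.223 against subcutaneous ILCs, edgeR adjusted p = 3.37e-05). Birc3, which encodes cIAP2, was at 100.2, 89.4 and 69.7 CPM in the epidermal, 232 and 130.5 in the dermal CCR6+, 397 and 316 in the dermal Sca1+ and 343, 336 and 285 in the subcutaneous libraries, with the same separation at -1.89 ± 0.246 (edgeR adjusted p = 0.000414). Icam1, an adhesion molecule gene, was at 196, 120.2 and 166 CPM in the epidermal, 304 and 317 in the dermal CCR6+, 357 and 329 in the dermal Sca1+ and 225, 291 and 191 in the subcutaneous libraries and was lower in epidermal than in dermal ILCs of both sorts, but its difference from subcutaneous ILCs was not called (-0.55, 95% interval -1.04 to -0.06).

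Bcl2a1b encodes an A1 protein of the Bcl-2 family that protects lymphocytes from apoptosis (chromosome 9, 89199209 to 89207827, plus strand). It was at 278, 240.5 and 229 CPM in the epidermal, 343 and 272 in the dermal CCR6+, 116 and 97.4 in the dermal Sca1+ and 42.3, 99.6 and 49.7 in the subcutaneous libraries. Epidermal and dermal CCR6+ libraries were all above all dermal Sca1+ and subcutaneous libraries. The log2 fold change was 1.96 ± 0.306 for epidermal minus subcutaneous (edgeR adjusted p = 0.00131), 2.27 ± 0.329 for dermal CCR6+ minus subcutaneous (0.00264) and 1.22 ± 0.343 for epidermal minus dermal Sca1+ ILCs (0.0455), the last lost in 8 of 10 fits with a library left out (adjusted p up to 0.195, without dermal Sca1+ replicate 2). Near-identical copies of this gene exist, so reads may be split between them with error. The copy Bcl2a1d, which is not a member, was at 309, 321 and 313 CPM in the epidermal, 341 and 319.6 in the dermal CCR6+, 145 and 113 in the dermal Sca1+ and 74.7, 125 and 77.1 in the subcutaneous libraries, and was called in the same 3 comparisons and in the same direction. Bcl2a1a was at most 8.21 CPM in any library. Cd83, a surface molecule gene of activated lymphocytes and dendritic cells, was at 708, 409.8 and 509.6 CPM in the epidermal, 1004 and 1131 in the dermal CCR6+, 448 and 385 in the dermal Sca1+ and 236, 592 and 159 in the subcutaneous libraries. It was highest in both dermal CCR6+ libraries, and the difference of 1.70 ± 0.453 from subcutaneous ILCs was called (edgeR adjusted p = 0.049). That call was lost in 7 of 10 fits with a library left out (adjusted p up to 0.214, without dermal CCR6+ replicate 2).

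Gadd45b, a stress response gene, was at 1188, 439 and 343 CPM in the epidermal, 775 and 1059 in the dermal CCR6+, 1136 and 1218 in the dermal Sca1+ and 1756, 1038 and 1661 in the subcutaneous libraries, with epidermal replicate 1 inside the range of the other populations. It was not called in any comparison (epidermal minus subcutaneous -1.18 ± 0.416, edgeR adjusted p = 0.0737), and without epidermal replicate 1 the difference was -1.91 and was called (edgeR adjusted p = 0.00142). Sod2, the mitochondrial superoxide dismutase gene and a common NF-kB target in other cells, lay between 111 and 138 CPM in all 10 libraries. Its log2 fold change between epidermal and subcutaneous ILCs was -0.07 with a 95% interval of -0.43 to 0.29. The survival genes Bcl2l1 and Cflar were not called in any comparison, with epidermal minus subcutaneous log2 fold changes of -0.23 (-0.65 to 0.18) and -0.14 (-0.73 to 0.44).

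Epidermal ILCs also had less RNA of several members than dermal ILCs of either sort. Against dermal CCR6+ ILCs, 9 of 33 members were lower in epidermal ILCs and 0 were higher, where 6.18% of all genes were called, 5.19% lower and 0.987% higher. At an unadjusted p under 0.05 in edgeR 0 members were higher. DESeq2 called 0 members higher, beside 585 of all 16208 genes. The members called were Ier3 (-3.92 ± 0.433, edgeR adjusted p = 0.000519), Traf1 (-2.08 ± 0.234, 0.000556), Malt1 (-2.49 ± 0.384, 0.00333), Nfkbie, Rel, Rela, Nfkbib, Birc3 and Icam1. The last 4 had log2 fold changes between -1.10 and -0.95 and lost their calls in 4, 5, 8 and 8 of 10 fits with a library left out, with adjusted p up to 0.117, 0.136 and 0.353 without dermal CCR6+ replicate 1 and up to 0.187 without dermal CCR6+ replicate 2. The number of members called was 5 without epidermal replicate 2, epidermal replicate 3 or dermal CCR6+ replicate 1, and 14 without epidermal replicate 1.

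Against dermal Sca1+ ILCs, 15 members were lower in epidermal ILCs and 1, Bcl2a1b, was higher, where 11.4% of all genes were called, 8.66% lower and 2.75% higher. The lower members included 6 of 8 inhibitor genes, Nfkbia, Nfkbib, Nfkbie, Nfkbiz, Bcl3 and Tnip1. The largest differences were those of Ier3 (-5.09 ± 0.451, edgeR adjusted p = 8.1e-05), Malt1 (-3.63 ± 0.395, 0.000251), Nfkbie, Traf1 (-2.66 ± 0.237, 8.21e-05), Nfkbiz (-2.29 ± 0.54, 0.0207), Rel and Birc3 (-2.04 ± 0.265, 0.000734). Of the 16 calls, 6 held in all 10 fits with a library left out, those of Birc3, Ier3, Malt1, Nfkbie, Rel and Traf1. The number of members called was 6 without dermal Sca1+ replicate 1, 9 without epidermal replicate 2 and 10 without epidermal replicate 3. The calls of Rela (adjusted p up to 0.0721), Icam1 (0.097), Bcl3 (0.212), Nfkbiz (0.116), Tnip1 (0.236), Bcl10 (0.28) and Nfkbib (0.352) were each weakest without dermal Sca1+ replicate 1, and those of Nfkbia (0.0878), Nfkb1 (0.151) and Bcl2a1b (0.195) without dermal Sca1+ replicate 2.

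The 3 comparisons share the epidermal libraries, so their calls are not independent of each other. Side by side, 8 members were lower in epidermal ILCs in all 3 (Birc3, Ier3, Malt1, Nfkbib, Nfkbie, Rel, Rela and Traf1), 6 in 2, 4 in 1 and 15 in none. The share of all genes lower in all 3 was not counted. It cannot exceed the 5.19% called lower against dermal CCR6+ ILCs. All 3 epidermal libraries lay below all 7 other libraries for 12 of the 33 members, against 8.72% of all genes tested. They lay above all 7 for 0 members and for 5.59% of all genes. The 12 were Map3k14, Malt1, Bcl10, Birc2, Nfkb1, Rel, Rela, Nfkbib, Nfkbie, Birc3, Traf1 and Ier3, of which 3 are induced targets and 2 are IkB genes. Nfkbia, Nfkbiz, Nfkbid and Tnfaip3 were not among them, and for each of these epidermal replicate 1 exceeded at least 1 library of another group.

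Between the dermal and subcutaneous populations few members were called, in comparisons that called between 0.642% and 7.46% of all genes. Dermal CCR6+ and dermal Sca1+ ILCs differed in 0 of 33 members by edgeR's quasi-likelihood test, in a comparison that called 0.642% of all genes. At an unadjusted p under 0.05, 7 members differed, and all genes were not counted by that rule in any comparison. DESeq2 called 2 members, beside 561 of all 16208 genes. Bcl2a1b had the lowest p, with a log2 fold change of 1.53 ± 0.369 (edgeR adjusted p = 0.13). Dermal Sca1+ and subcutaneous ILCs also differed in 0 members, where 2.2% of all genes were called, with 2 members at an unadjusted p under 0.05. DESeq2 called 0 members there, beside 1193 of all 16208 genes. The member log2 fold changes between dermal Sca1+ and subcutaneous ILCs lay between -0.81 for Tnfaip3 and 0.74 for Bcl2a1b. Dermal CCR6+ and subcutaneous ILCs differed in 2 members, Bcl2a1b and Cd83, both higher in dermal CCR6+ ILCs, where 7.46% of all genes were called, 3.75% higher and 3.71% lower. At an unadjusted p under 0.05, 9 members differed in it. DESeq2 called 7 members, beside 2345 of all 16208 genes. The number called by edgeR was 4 without epidermal replicate 1, 3 without dermal CCR6+ replicate 1, and 1, Bcl2a1b, without any of epidermal replicate 3, dermal CCR6+ replicate 2, either dermal Sca1+ library, subcutaneous replicate 1 or subcutaneous replicate 3. For Nfkbiz the difference was -1.85 with a 95% interval of -3.13 to -0.57, and for Rel and Rela it was -0.04 (-0.73 to 0.64) and -0.03 (-0.60 to 0.53). A test of any difference among the 4 populations called 14 of 33 members, beside 17.4% of all genes.

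**Figure D4:**
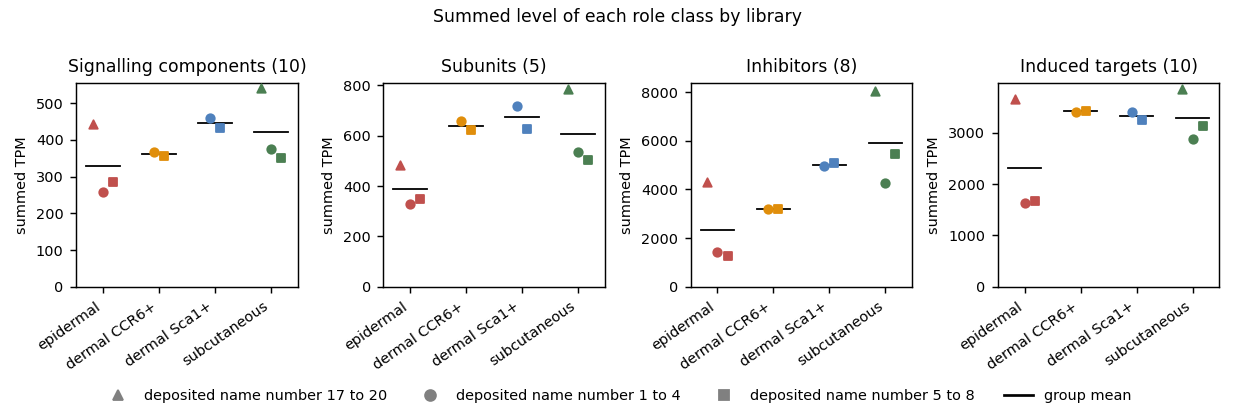
Summed TPM of the signalling components, subunits, inhibitors and induced targets in each of the 10 libraries, by population, with a line at each group mean. The subunit sums of the epidermal libraries lie below all others, while the inhibitor and target sums of epidermal replicate 1 lie inside the range of the other groups.

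Per role class, the summed TPM of the 8 inhibitors was 4303, 1432 and 1283 in the epidermal, 3179 and 3189 in the dermal CCR6+, 4977 and 5074 in the dermal Sca1+, and 8048, 4256 and 5451 in the subcutaneous libraries. Replicate 1 of the epidermal group exceeded both dermal CCR6+ libraries and 1 subcutaneous library, and the other 2 epidermal libraries were the lowest of all. The summed TPM of the 10 targets was 3656, 1636 and 1673 in the epidermal libraries and lay between 2882 and 3865 in all others. That of the 10 signalling components was 442, 259 and 286 in the epidermal libraries and between 349 and 541 in all others. These sums are set mostly by the genes with the highest level, which included Nfkbia and Tnfaip3 among the inhibitors and Gadd45b among the targets.

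Epidermal replicate 1 and subcutaneous replicate 1 carry the numbers 17 and 20 in their deposited names, and the other libraries carry 1 to 8. What the numbers stand for is not given in the labels. Both libraries stood high within their groups for many NF-kB genes. Epidermal replicate 1 was the highest of its group for 24 of 33 members, against 34.2% of all genes tested. Subcutaneous replicate 1 was for 22, against 34.4%, and both were for 17 members (51.5%), against 16.7%. Both were highest for 6 of 8 inhibitors, 4 of 5 subunits, 4 of 10 signalling components and 3 of 10 targets. Tnfaip3 in epidermal replicate 1 was 5.18 times the mean of the other 2 epidermal libraries, and in subcutaneous replicate 1 it was 2.23 times the mean of the other 2. The same ratios were 3.42 and 1.5 for Nfkbiz, 3.01 and 1.68 for Nfkbid, 3.04 and 1.3 for Gadd45b, and 2.73 and 2.44 for Map3k14. The summed level of 14 immediate early genes was also highest in these libraries of their groups, at 12807 CPM in epidermal replicate 1 and 26057 in subcutaneous replicate 1, within group ranges of 7443 to 12807 and 14917 to 26057. Their part in the levels of the NF-kB genes was not tested.

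Within each run of name numbers the comparison of the epidermal with the subcutaneous library could be made once. Of the 33 members, 25 were lower in the epidermal library in all 3 runs, 2 were higher in all 3 and 6 were mixed. Of all genes tested, 29.3% were lower in all 3 and 25.9% were higher in all 3. Subcutaneous over epidermal ratios in the runs 17 to 20, 1 to 4 and 5 to 8 were 2.1, 4.2 and 5.68 for Tnfaip3, 1.88, 2.55 and 4.56 for Nfkbia, and 5.74, 10.4 and 16.2 for Nfkbiz. For Rel they were 3.88, 4.44 and 5.73, for Nfkbie 9.65, 15.7 and 9.48, for Traf1 5.71, 6.05 and 6.47, and for Ier3 23.1, 40.2 and 29.2. Each of these genes was thus lower in the epidermal library of every run, Tnfaip3 included. Without the libraries numbered 17 and 20, Tnfaip3 was called at -2.27 (edgeR adjusted p = 0.000182).

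Of a list of 33 further pathway genes, such as adaptors, ubiquitin ligases and deubiquitinases, 6 had lower and 2 had higher levels in epidermal than in subcutaneous libraries, and 25 had no call. These 8 calls are 24.2% of the list, near the 20.2% of all genes called, with 18.2% of the list and 13.3% of all genes lower. Irak2, a kinase of the IL-1 and IL-33 receptor pathway, was at 11.9, 17.9 and 17.2 CPM in the epidermal, 127 and 117 in the dermal CCR6+, 234 and 112 in the dermal Sca1+ and 175, 111 and 85.4 in the subcutaneous libraries. Its epidermal libraries were below all others (-2.98 ± 0.356, edgeR adjusted p = 0.000229 against subcutaneous ILCs). Irak3, which encodes an inhibitory kinase of the same receptors, was at 17, 13 and 14.1 CPM in the epidermal and 64.8, 81.3 and 56.8 in the subcutaneous libraries (-2.20 ± 0.252, edgeR adjusted p = 0.000183). Zc3h12a, which encodes the RNase Regnase-1 that destroys inflammatory transcripts, was at 63.3, 16.9 and 16.8 and 172, 122 and 140.4 CPM (-2.16 ± 0.471, edgeR adjusted p = 0.00906). Tnip3, an A20-binding inhibitor gene, had 2 counts in all over the epidermal and 1322 over the subcutaneous libraries, a ratio of 835 with a 95% exact interval of 231 to 6905 for counting error only. N4bp1, a suppressor of NF-kB signalling, was higher in epidermal ILCs, at 115, 87.8 and 60.8 against 25, 21 and 18.08 CPM (2.04 ± 0.331, edgeR adjusted p = 0.00167). These 5 calls held in all 10 fits with a library left out. The adaptor genes Myd88 and Tax1bp1 were the other lower genes and Tradd the other higher one, and the calls of Myd88 and Tradd were lost in 4 and 7 of the 10 fits (adjusted p up to 0.0784 without epidermal replicate 2 and up to 0.147 without epidermal replicate 3). Of the 33, 2 (6.06%) were called lower against dermal CCR6+ ILCs, Tnip3 and Irak2, where 5.19% of all genes were lower. Against dermal Sca1+ ILCs 4 (12.1%) were called lower and 1 higher, where 8.66% of all genes were lower and 2.75% higher.

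Markers of other cells also differed between the populations, in both directions. Between epidermal and subcutaneous ILCs, 8 of 8 macrophage, 8 of 8 fibroblast, 8 of 8 endothelial, 4 of 4 simple epithelium, 5 of 6 mast cell, 2 of 4 B cell and 1 of 6 T cell markers were lower in the epidermal libraries, and 8 of 8 keratinocyte markers were higher. The summed level of the 4 simple epithelium markers was 31.2 to 39.4 CPM in the epidermal and 1303 to 3962 in the subcutaneous libraries. Of 14 immediate early genes, 9 were called lower in this comparison and 14 had a negative log2 fold change, with a median of -1.48. In the epidermal libraries 4 of 6 mast cell, 3 of 8 endothelial, 2 of 8 fibroblast and 1 of 8 macrophage markers had no count. Between dermal CCR6+ and subcutaneous ILCs, 7 of 8 macrophage, 3 of 8 fibroblast, 4 of 4 simple epithelium, 2 of 6 mast cell and 1 of 4 B cell markers were lower in dermal CCR6+ ILCs. Higher in them were 6 of 8 keratinocyte markers and 1 of 6 T cell markers, and 0 of 8 endothelial markers were called. In that comparison the median log2 fold change was -0.98 over the 8 inhibitors, -0.03 over the 5 subunits, -0.31 over the 10 signalling components and -0.09 over the 10 targets, and -0.08 over all genes tested. The lowest member values were -1.85 for Nfkbiz, -1.31 for Tnfaip3, -1.23 for Bcl3 and -1.21 for Nfkbid, none of them called. Between dermal Sca1+ and subcutaneous ILCs, 4 of 4 simple epithelium, 2 of 8 macrophage and 1 of 4 B cell markers were lower in dermal Sca1+ ILCs. Higher were 6 of 8 keratinocyte markers and 1 of 6 T cell markers. The median log2 fold change there was 0.06 over the 33 members and -0.03 over all genes tested. Between the dermal and the epidermal libraries, the summed level of 8 fibroblast markers differed from 1231 CPM or more to 17.1 or less. The part of RNA from these cells, or of the immediate early genes, in the levels of the NF-kB genes was not tested.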

How the data were processed

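Column-purified total RNA entered a SMART-Seq ultra low input kit with Nextera XT tagging, per the labels' protocols. These kits do not mark strand, so reads of overlapping or antisense genes cannot be separated. Trimmomatic, STAR and RSEM were used with mm10, per the submitters' processing notes, with versions, settings and annotation not given in the sources used here. A table per library holds expected counts, the authors' RSEM estimates of reads per gene. The deposited TPM values are length-corrected, per the file headers. Gene IDs were matched to GENCODE M21 (47224 of 47643 had a symbol, 39106 in the same version), whose coordinates are given. Promoters are from RefSeq (GRCm38.p6).

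Expected counts were rounded (7.2% to 8.39% of a library's values were fractional). Genes passing filterByExpr (count minimum 10) were fitted in 1 model with 4 group terms over all 10 libraries by the edgeR 4.0.16 quasi-likelihood method (R 4.3.3) with TMM factors, which lay between 0.907 and 1.131. Benjamini-Hochberg adjustment was over 16208 genes within each of 6 comparisons, and an adjusted p under 0.05 was called. The SE is the absolute log2 fold change over the square root of F. The scripts were tested on simulated data. The chi-square between replicates was at least 42.8 per degree of freedom, so each library was counted once.

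The members and gene lists were chosen with earlier results of these data known. All members could be named, with full statistics for up to 8 called members of largest change per comparison, and up to 5 called genes of the further pathway list. Titles gave the groups. The alternatives were RLE factors, DESeq2 1.42.0, limma 3.58.1 on log2(TPM + 1) or log2(TPM + 0.1), a minimum of 1 count, 5 CPM in at least 2 libraries, a robust dispersion fit, fits of 2 groups, replicate blocks and libraries left out.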

Additional observations from a re-analysis of the deposited data

How the results depend on the processing

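Over 21 alternatives, the 44 calls of single members gave 924 values, of which 773 stayed past the threshold, 151 did not and 0 reversed, and 24 of the 44 calls were never lost. Members called between epidermal and dermal CCR6+ ILCs went from 9 to 5 with limma on log2(TPM + 1) and on log2(TPM + 0.1), 14 with a minimum of 1 count, and 15 without the libraries numbered 17 and 20. All genes called there went from 1001 to 1097 and 1168 with limma, 2028 with a minimum of 1 count and 1023 without those libraries. Between both dermal populations, 0 became 2 with DESeq2 and 5 with a minimum of 1 count, and all genes went from 104 to 561 and 647. Between dermal Sca1+ and subcutaneous ILCs, 0 became 1 with a minimum of 1 count, and all genes went from 357 to 1328. Between dermal CCR6+ and subcutaneous ILCs, 2 became 1 with RLE factors, 7 with DESeq2 and 9 with a minimum of 1 count. There all genes went from 1209 to 1215, 2345 and 2292. A minimum of 1 count left 25793 genes for testing. The cause was not tested. Leaving out each library in turn gave 12 to 21 members for epidermal against subcutaneous, 5 to 14 against dermal CCR6+ and 6 to 17 against dermal Sca1+ ILCs, 0 to 1 between the dermal populations, 0 to 1 for dermal Sca1+ and 1 to 4 for dermal CCR6+ against subcutaneous ILCs, and 10 to 18 for any difference. With 1 library left in a group, its spread was taken from the other groups. Members with a promoter match went from 11 to 1 of 26 with the exact kappaB motif of the immunoglobulin kappa enhancer, which is a stricter rule. Of all 27025 genes with a promoter window, 47 held the exact motif.

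Correlations of deviations from the group means lay between -0.0381 and 0.114 over 13 pairs of libraries with the same title number and between -0.0219 and 0.114 over 13 pairs in the same run of name numbers. The highest, 0.114, was that of epidermal replicate 1 with subcutaneous replicate 1. Epidermal replicate 2 and subcutaneous replicate 3, which share neither number, had 0.0877. Deviations of the 2 libraries of a dermal group mirror each other, so these values do not settle whether samples are paired. With a replicate block by title number, 18, 7 and 12 members were called for epidermal against subcutaneous, dermal CCR6+ and dermal Sca1+ ILCs, and with a replicate block by run of name numbers 20, 13 and 20. Of all 16208 genes, the block by title number called 2667, 668 and 1273 in these comparisons, and that by run called 3071, 992 and 1774. The second block called 1 member between dermal Sca1+ and subcutaneous ILCs, beside 259 of all genes. Tnfaip3, not called between epidermal and subcutaneous ILCs without a block (-1.53, edgeR adjusted p = 0.103), was called with the block by title number (-1.79, 0.0266) and with that by run (-1.89, 0.00173).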
